A study of Mus musculus with 9 samples.

Results

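The collagen chain genes encode the polypeptides from which collagens, the main structural proteins of the extracellular matrix, are built. They were taken here as every gene of the deposited count table whose symbol reads Col, a number, the letter a and a number, which gave 44 of the 24062 genes listed. By the known structure of their products they were sorted into 11 fibrillar chains, 8 basement membrane chains, 9 FACIT chains (fibril-associated collagens with interrupted triple helices) and 16 others, namely beaded filament, network-forming, anchoring fibril and transmembrane chains and a few remaining ones. The rule used symbols only, and no measured value. Col9a1 was not tested because its counts were low (2 to 16 per sample), and the other 43 chains passed the filter on low counts.

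The study sequenced RNA from fibroblasts grown out of C57BL/6 mouse embryos and made senescent by gamma-irradiation. Senescent cells no longer divide, yet they live on and release a wide range of proteins. On day 10 after irradiation a lentivirus delivered a scrambled control hairpin (shScr) or a short hairpin that targets Rela. There were 2 such hairpins of different sequence, shRela-1 and shRela-2, and 3 replicates in each of the 3 groups. Rela encodes p65, a subunit of the transcription factor NF-kB. All groups carry the irradiation and a virus, so the comparisons bear on the hairpins only, and a hairpin lowers a transcript without removing the gene. The 3 shScr titles end in the tag dataset 11, while the series is dataset 12 and the shRela titles bear no tag. A batch that goes with that tag cannot be told apart from the group. Nothing in the labels says that replicates came from separate cultures, so the spread behind each p-value may be technical only.

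A collagen molecule is a triple helix of 3 chains, wound around each other and kept tight by regularly spaced glycines. Fibrillar collagens such as types I, III and V are cleaved outside the cell and packed into crosslinked fibrils, type IV forms the mesh of basement membranes, and FACITs sit on the surface of fibrils. Fibroblasts are the main producers of types I, III, V and VI, and loss or remodelling of collagen by ageing and senescent fibroblasts is a well known feature of connective tissue.

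Total counts ran from 49774667 to 67963506 per sample, and 15369 genes were tested. All 8 fibroblast markers examined (among them Pdgfra, Thy1, Vim and Dcn) were above 1 CPM (read counts normalised to library size, with TMM scaling) in every sample. Rela stood at 85.5, 83.2 and 86.8 CPM in shScr replicates 1 to 3, at 14.1, 13.6 and 13.2 under shRela-1, and at 14.8, 13.5 and 13.4 under shRela-2. This left 16.01 ± 0.572% (shRela-1) and 16.3 ± 0.902% (shRela-2) of the mean level in shScr (SD, n = 3). Of other cell types, the 5 macrophage and blood markers were above 1 CPM in every sample, with a summed level of 67.1 to 107 CPM in shScr, 72.9 to 107 under shRela-1 and 54.1 to 86.6 under shRela-2. Skeletal muscle markers, nearly all Des and Acta1, summed to 291 to 538 CPM in shScr, 450 to 821 under shRela-1 and 227 to 376 under shRela-2. Schwann and neural markers, nearly all Tubb3, summed to 87.8 to 88.3, 57.9 to 62.6 and 123 to 134 CPM. The part of these cells in the results below was not tested. In bulk RNA, fewer cells of a type and less RNA per cell cannot be told apart.

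Collagen transcripts were abundant in these cells and very unequal. In shScr, 12 chains stood above 100 CPM per kilobase of exon, the scale used here to compare genes of different length, and 16 stood below 1. Col1a1 led with 2520 ± 117 CPM per kilobase (SD, n = 3), followed by its partner Col1a2 with 1798 ± 79.0, Col3a1 with 835 ± 64.0, Col5a2 with 705 ± 10.3 and Col5a1 with 528 ± 39.95. Col4a1 had the highest level among basement membrane chains, at 381 ± 30.3, Col12a1 among FACITs, at 343 ± 52.7, and Col6a1 among the others, at 236 ± 16.3. Over all samples, Col1a1 gave 28.2% of the collagen counts and Col1a2 18.1%, and the 7 chains with the most counts (Col1a1, Col1a2, Col3a1, Col5a2, Col5a1, Col12a1 and Col4a1) gave 85.8%.

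**Figure D1:**
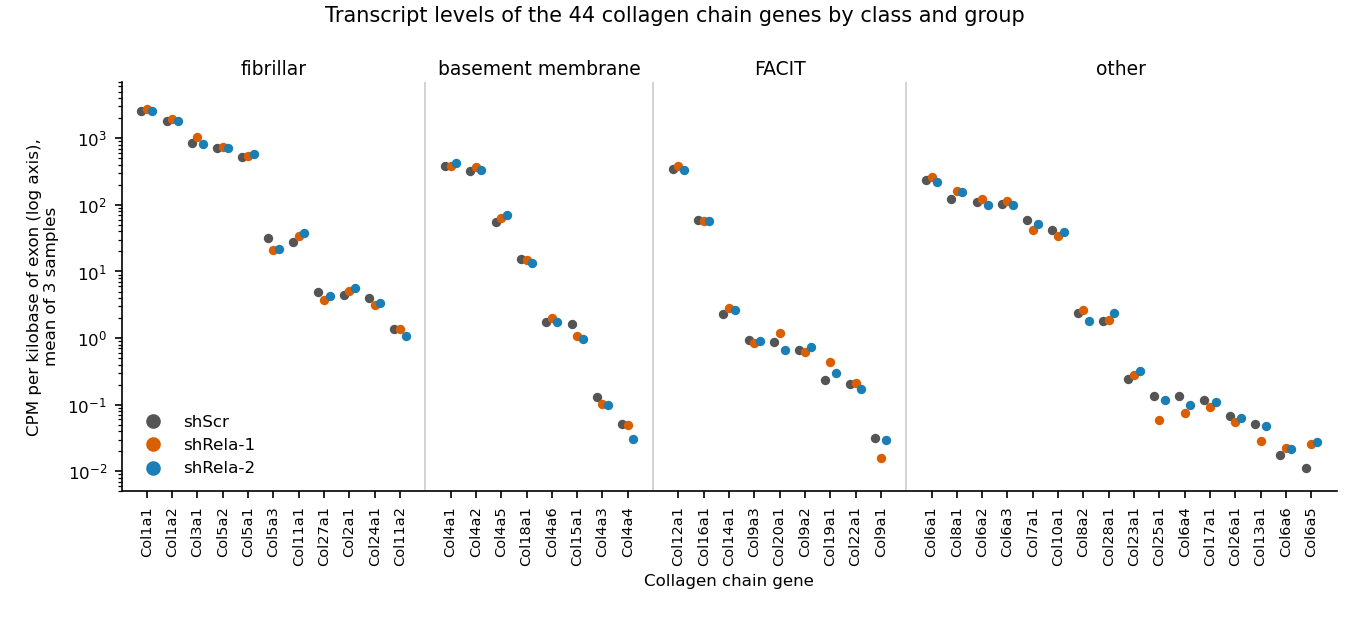
Mean level of each of the 44 collagen chain genes in CPM per kilobase of exon (log axis, n = 3 per group), by class and in order of the shScr level; each point is 1 group. Levels within a class span several powers of 10, and the 3 groups lie close together for most chains, such as Col1a1 at 2520, 2704 and 2543.

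Collagen chains together took 5.10, 5.08 and 5.60% of all counts in shScr replicates 1 to 3, 5.41, 5.68 and 5.71% under shRela-1, and 5.28, 5.58 and 5.39% under shRela-2. The groups overlapped. Group means were 5.26 ± 0.296, 5.60 ± 0.168 and 5.41 ± 0.152% (SD, n = 3). The exact permutation test, two-sided, gave p = 0.2 for shRela-1 against shScr, 0.6 for shRela-2 against shScr and 0.2 for the difference between hairpins (0.3, 0.6 and 0.3 adjusted over the 3 tests). With 3 samples against 3 this test cannot go below 0.1. On TMM-scaled totals the shRela-2 samples lay wholly below the shRela-1 samples, by 0.347 percentage points in the mean (5.34 against 5.69%). In same-numbered pairs shRela-2 was lower than shRela-1 in 3 of 3 on either total. Against shScr, shRela-1 was higher in 3 of 3 pairs on either total, and shRela-2 in 2 of 3. The mean difference of shRela-1 from shScr was 0.340 ± 0.246 percentage points on raw and 0.440 ± 0.175 on TMM-scaled totals (SD of the 3 differences).

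With shRela-1, 6 of 43 chains rose (14%) and 5 fell (11.6%), beside 12.3% and 12.4% of all genes tested (edgeR's quasi-likelihood test, Benjamini-Hochberg adjusted p under 0.05). With shRela-2, 3 rose and 3 fell (7.0% each), beside 15.4% in each direction among all genes tested. In the mean of both hairpins against shScr, 3 rose and 3 fell, beside 10.7% and 12.2% of all genes. Between hairpins, 2 chains were higher with shRela-2 (4.7%) and 5 were lower (11.6%), beside 20.0% and 19.9% of all genes. In this fit, which does not use the replicate numbers, the share of collagen chains called was near or below that of all genes. Members were called in both directions. In the fit that uses the numbers, given next, the share lay above that of all genes in some counts and below it in others. The median log2 fold change of the 43 chains was 0.08 with shRela-1, -0.05 with shRela-2, 0.03 in the mean and -0.04 between hairpins, while that of all genes tested lay between -0.01 and 0.00 in these comparisons. The comparisons with shScr use the same 3 control samples, so what they share was not counted.

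Replicate numbers in the titles pair the samples across groups, and with the number as a block in the model more was called. With shRela-1, 16 chains rose (37.2%) and 8 fell (18.6%), beside 20.4% and 18.9% of all genes. With shRela-2, 8 rose (18.6%) and 11 fell (25.6%), beside 22.2% in each direction. In the mean of both hairpins, 11 rose (25.6%) and 9 fell (20.9%), beside 17.8% and 19.7%. Between hairpins, 10 were higher with shRela-2 (23.3%) and 14 lower (32.6%), beside 25.8% and 26.1%. The 16 that rose with shRela-1 make 37.2% of the chains tested, the widest gap to all genes among these counts. No call among the chains described by name was lost with the block.

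Single libraries moved these counts by more than 1.5 times. A decimal in parentheses after a left-out library is, from here on, the edgeR adjusted p without it. Fits that leave out samples have no replicate block. In the comparison of shRela-1 with shScr, 3 chains rose without shScr replicate 1, without shScr replicate 2 or without shRela-1 replicate 2, 2 rose without shRela-1 replicate 3, and 3 fell without shScr replicate 3. In that of shRela-2 with shScr, 1 rose without shScr replicate 1 and 0 rose without shRela-2 replicate 2 (edgeR, 3 at an unadjusted p under 0.05), while 5 fell without shScr replicate 1 and 1 fell without shScr replicate 3, shRela-2 replicate 1 or shRela-2 replicate 2. In the mean of both hairpins, 0 rose without shScr replicate 1 (edgeR, 3 unadjusted), and 1 rose without replicate 2 of shRela-1 or of shRela-2. Between hairpins, 0 were higher with shRela-2 without shRela-1 replicate 2 (edgeR, 3 unadjusted) or shRela-2 replicate 3 (2 unadjusted), and 1 when shRela-1 replicate 3 or shRela-2 replicate 1 was left out. Calls over all genes moved as well. With 1 sample left out, 8.45 to 12.2% of all genes rose and 9.26 to 12.3% fell with shRela-1. With shRela-2, 12.02 to 15.1% rose and 12.3 to 15.6% fell. In the mean of both hairpins, 6.73 to 9.68% rose and 8.30 to 11.8% fell. Between hairpins, 16.6 to 19.8% were higher with shRela-2 and 17.1 to 19.8% lower.

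**Figure D2:**
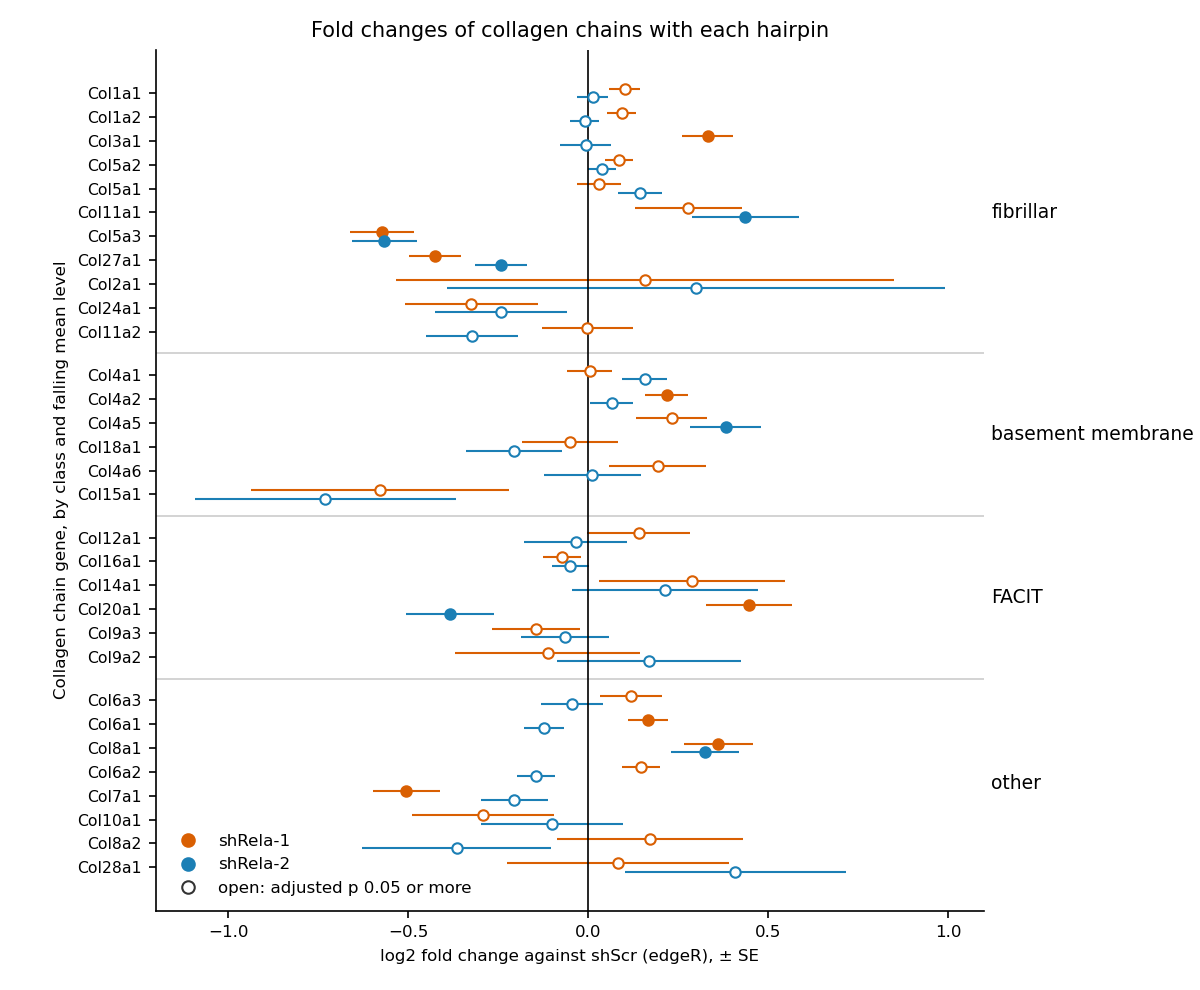
Log2 fold change against shScr ± SE (edgeR, n = 3 per group) for the 31 chains that averaged 1 or more in log2 CPM, by class and in order of mean level; filled points have an adjusted p under 0.05. Col5a3 lies at -0.57 with both hairpins, Col8a1 lies above 0 with both, Col3a1 is filled with shRela-1 only, and Col20a1 has filled points on opposite sides of 0.

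Among the fibrillar chains, Col5a3 and Col27a1 fell with both hairpins and the chains of type I did not pass the test. Col5a3 encodes the third chain of type V collagen, a minor fibrillar collagen that sets fibril diameter. The gene lies on chromosome 9, 20770050 to 20815067, minus strand of mm10. It stood at 187, 180 and 214 CPM in shScr, at 129, 125 and 137 under shRela-1, and at 114, 133 and 146 under shRela-2. All 6 knockdown samples were below all 3 control samples, and the hairpin groups overlapped each other. The log2 fold change was -0.57 ± 0.0895 with shRela-1 (SE, edgeR adjusted p = 0.00106) and -0.57 ± 0.0895 with shRela-2 (adjusted p = 0.000878). Between hairpins it was 0.01 (95% interval -0.19 to 0.20, adjusted p = 0.967). The calls against shScr held under all 14 alternative settings, with adjusted p up to 0.0153 and 0.0108. Relative to its partner Col5a1, Col5a3 stood at 0.0599 ± 0.00322 counts per kilobase for each of Col5a1 in shScr, 0.0395 ± 0.00221 with shRela-1 and 0.0365 ± 0.00309 with shRela-2 (SD, n = 3), a description chosen after the values were seen.

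The promoter stretch of Col5a3 is shown with that of Col8a1, since Col5a3 fell and Col8a1 rose with each hairpin. Capitals mark matches, on either strand, to GGG, any 5 bases and CC, a loose form of the sequence that NF-kB subunits bind, in the 250 bases before the annotated start (RefSeq, GRCm38.p6). Overlapping matches on the 2 strands run together. The Col5a3 stretch is chr9:20815068-20815317, minus strand, with 5 matches, and the Col8a1 stretch is chr16:57754738-57754987, minus strand, also with 5.
Col5a3: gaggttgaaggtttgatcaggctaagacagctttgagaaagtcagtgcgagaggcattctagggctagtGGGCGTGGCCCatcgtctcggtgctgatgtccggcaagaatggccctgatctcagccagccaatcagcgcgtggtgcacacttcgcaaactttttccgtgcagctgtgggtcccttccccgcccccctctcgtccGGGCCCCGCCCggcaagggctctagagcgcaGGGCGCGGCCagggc
Col8a1: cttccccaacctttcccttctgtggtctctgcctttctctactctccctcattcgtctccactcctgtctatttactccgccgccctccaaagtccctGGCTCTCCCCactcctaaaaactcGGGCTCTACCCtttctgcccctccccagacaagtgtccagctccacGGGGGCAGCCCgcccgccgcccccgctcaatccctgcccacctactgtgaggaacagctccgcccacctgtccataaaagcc
Of the 44 chains, 35 had an entry among the RefSeq promoters, and 26 of these (74.3%) held such a match, beside 48.65% of all 27025 genes with an entry. The genes with an entry were not limited to those tested, and base composition was not matched. The narrower form, GGG, any 2 bases and TTTCC, was found in 1 of the 35 chains (2.9%), Col17a1, and in 1.65% of all genes. A match describes these letters only.

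Col27a1, a fibrillar chain best known from cartilage, stood at 37.4, 36.5 and 40.2 CPM in shScr, 30.8, 25.2 and 28.9 under shRela-1, and 32.1, 30.8 and 33.7 under shRela-2. All knockdown samples again lay below all control samples. It fell by 0.43 ± 0.0723 on the log2 scale with shRela-1 (SE, edgeR adjusted p = 0.00174) and by 0.24 ± 0.0722 with shRela-2 (adjusted p = 0.0278). The second call did not hold without shScr replicate 3 (0.112), shRela-2 replicate 1 (0.0645) or shRela-2 replicate 2 (0.0987). Between hairpins the log2 difference was 0.19 (95% interval 0.02 to 0.35, adjusted p = 0.0653), and it passed with the replicate block (adjusted p = 0.00325). All shRela-2 samples lay above the shRela-1 samples, by a margin of 30.80 to 30.78 CPM.

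Of the 5 fibrillar chains with the highest levels, Col1a1, Col1a2, Col3a1, Col5a2 and Col5a1, only Col3a1 passed the test against shScr without the replicate block, and it did so with shRela-1. It encodes type III collagen, which forms thin fibrils together with type I in skin, vessels and healing wounds. It stood at 4271, 4694 and 4979 CPM in shScr, 5295, 6093 and 6173 under shRela-1, and 4440, 4863 and 4586 under shRela-2. The shRela-1 samples were above all others, and shRela-2 overlapped shScr. Its log2 fold change was 0.33 ± 0.0710 with shRela-1 (SE, edgeR adjusted p = 0.0065) and -0.01 ± 0.0709 with shRela-2 (95% interval -0.16 to 0.15, adjusted p = 0.964). The difference between hairpins was itself tested and was -0.34 ± 0.0710 (adjusted p = 0.00318). Without the 3 samples numbered replicate 2, the call with shRela-1 was lost (log2 fold change 0.31, adjusted p = 0.0657), and that between hairpins held.

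Col5a2, the neighbour of Col3a1 on chromosome 1 (Col3a1 from 45311538 to 45349706 on the plus strand, Col5a2 from 45374321 to 45503282 on the minus strand), had log2 fold changes of 0.09 (95% interval -0.00 to 0.17, edgeR adjusted p = 0.147, and 0.041 with the replicate block) and 0.04 (-0.05 to 0.13, adjusted p = 0.515). Col5a1, its partner in type V collagen, had 0.03 with shRela-1 (-0.11 to 0.17, adjusted p = 0.775) and 0.15 with shRela-2 (0.01 to 0.28, adjusted p = 0.0995, and 0.000959 with the block). Counts per kilobase of Col3a1 for each of Col5a2 were 1.103, 1.20 and 1.25 in shScr, 1.28, 1.43 and 1.4998 under shRela-1, and 1.097, 1.16 and 1.19 under shRela-2. This ratio, chosen after the values were seen, was higher in the shRela-1 samples than in all others.

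Type I collagen, the chief protein of skin, tendon and bone, is made of 2 chains of Col1a1 to 1 of Col1a2. Col1a1 stood at 15122, 14176 and 15525 CPM in shScr, 16553, 15804 and 15748 under shRela-1, and 15249, 15231 and 14751 under shRela-2. Its log2 fold change was 0.10 with shRela-1 (95% interval 0.01 to 0.20, edgeR adjusted p = 0.113) and 0.01 with shRela-2 (-0.08 to 0.11, adjusted p = 0.859). For Col1a2 the values were 0.09 (0.01 to 0.18, adjusted p = 0.117) and -0.01 (-0.10 to 0.08, adjusted p = 0.896). These intervals leave room for a rise of up to about 0.20 with shRela-1 and a change of about 0.10 either way with shRela-2. With the replicate block both chains passed with shRela-1, Col1a1 with an adjusted p of 0.0172 and Col1a2 with 0.0242.

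Col11a1 and Col2a1 encode chains of types XI and II, which form the fibrils of cartilage. Col11a1 stood at 179, 250 and 210 CPM in shScr, 227, 299 and 249 under shRela-1, and 256, 348 and 262 under shRela-2. All shRela-2 samples were above shScr, by a margin of 256 to 250, and the sample numbered 2 was highest in each group. The log2 fold change with shRela-2 was 0.44 ± 0.148 (SE, edgeR adjusted p = 0.0465). This call was lost with DESeq2 (adjusted p = 0.0574) and without shScr replicate 1 (0.143), shScr replicate 3 (0.12), shRela-1 replicate 3 (0.0681), shRela-2 replicate 2 (0.178) or shRela-2 replicate 3 (0.0525). With the replicate block this call held (edgeR adjusted p = 7.04e-10). With shRela-1 the log2 fold change was 0.28 ± 0.148 (adjusted p = 0.21), and with the replicate block it passed (adjusted p = 5.35e-07). Between hairpins the difference was 0.16 (95% interval -0.17 to 0.49, adjusted p = 0.436), which passed with the block (0.000423).

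In the basement membrane, Col4a2 and Col4a5 rose with 1 hairpin each. Type IV collagen is built from Col4a1 and Col4a2 in nearly all basement membranes and from Col4a3 to Col4a6 in some, such as those of kidney and lung. Col4a2 stood at 1952, 1988 and 2236 CPM in shScr, 2339, 2384 and 2462 under shRela-1, and 2024, 2164 and 2275 under shRela-2. The shRela-1 samples were above all others. On the log2 scale the change was 0.22 ± 0.0595 with shRela-1 (SE, edgeR adjusted p = 0.0222) and 0.07 with shRela-2 (95% interval -0.07 to 0.20, adjusted p = 0.457). The call did not hold without shScr replicate 1 (0.0701), shScr replicate 2 (0.0724), shRela-1 replicate 2 (0.0518) or shRela-1 replicate 3 (0.0757), and without the 3 samples numbered 2 (0.163). With the replicate block the call held (edgeR adjusted p = 1.4e-05). Between hairpins the difference was -0.15 (95% interval -0.28 to -0.02, adjusted p = 0.0645), which passed with the replicate block (0.000466).

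Col4a5, on the X chromosome, stood at 312, 384 and 377 CPM in shScr, 367, 449 and 444 under shRela-1, and 428, 507 and 463 under shRela-2. All shRela-2 samples lay above shScr, while shRela-1 overlapped both groups. In the fit the log2 change was 0.38 ± 0.0982 with shRela-2 (SE, edgeR adjusted p = 0.0132), a call lost without shRela-2 replicate 2 (0.0547) or without the 3 samples numbered 2 (0.0589). With the replicate block that call held (edgeR adjusted p = 9.87e-10). With shRela-1 the log2 change was 0.23 ± 0.0981 (adjusted p = 0.115, and 1.85e-06 with the block). The mean of both hairpins was 0.31 ± 0.0860 (adjusted p = 0.0264, and 6.74e-09 with the block). That call was lost without shScr replicate 1 (0.102), shScr replicate 3 (0.0541), shRela-1 replicate 2 (0.0506), shRela-1 replicate 3 (0.0568) or shRela-2 replicate 2 (0.0516), and without the samples numbered 2 (0.0952). Without the block Col4a1, Col18a1, Col4a6, Col15a1, Col4a3 and Col4a4 were not called in any comparison. Col15a1, a chain of the outer side of basement membranes, stood at 6.64, 10.4 and 11.8 CPM in shScr, 3.67, 7.66 and 8.10 under shRela-1, and 3.05, 6.69 and 7.69 under shRela-2. The groups overlapped, while each knockdown sample was below the shScr sample of its number. Its log2 fold changes were -0.58 (95% interval -1.37 to 0.22, edgeR adjusted p = 0.285) and -0.73 (-1.53 to 0.07, adjusted p = 0.161), and with the block they passed (2.24e-05 and 1.07e-06). Col18a1, the source of endostatin, had -0.21 with shRela-2 (adjusted p = 0.287, and 7.55e-05 with the block).

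**Figure D3:**
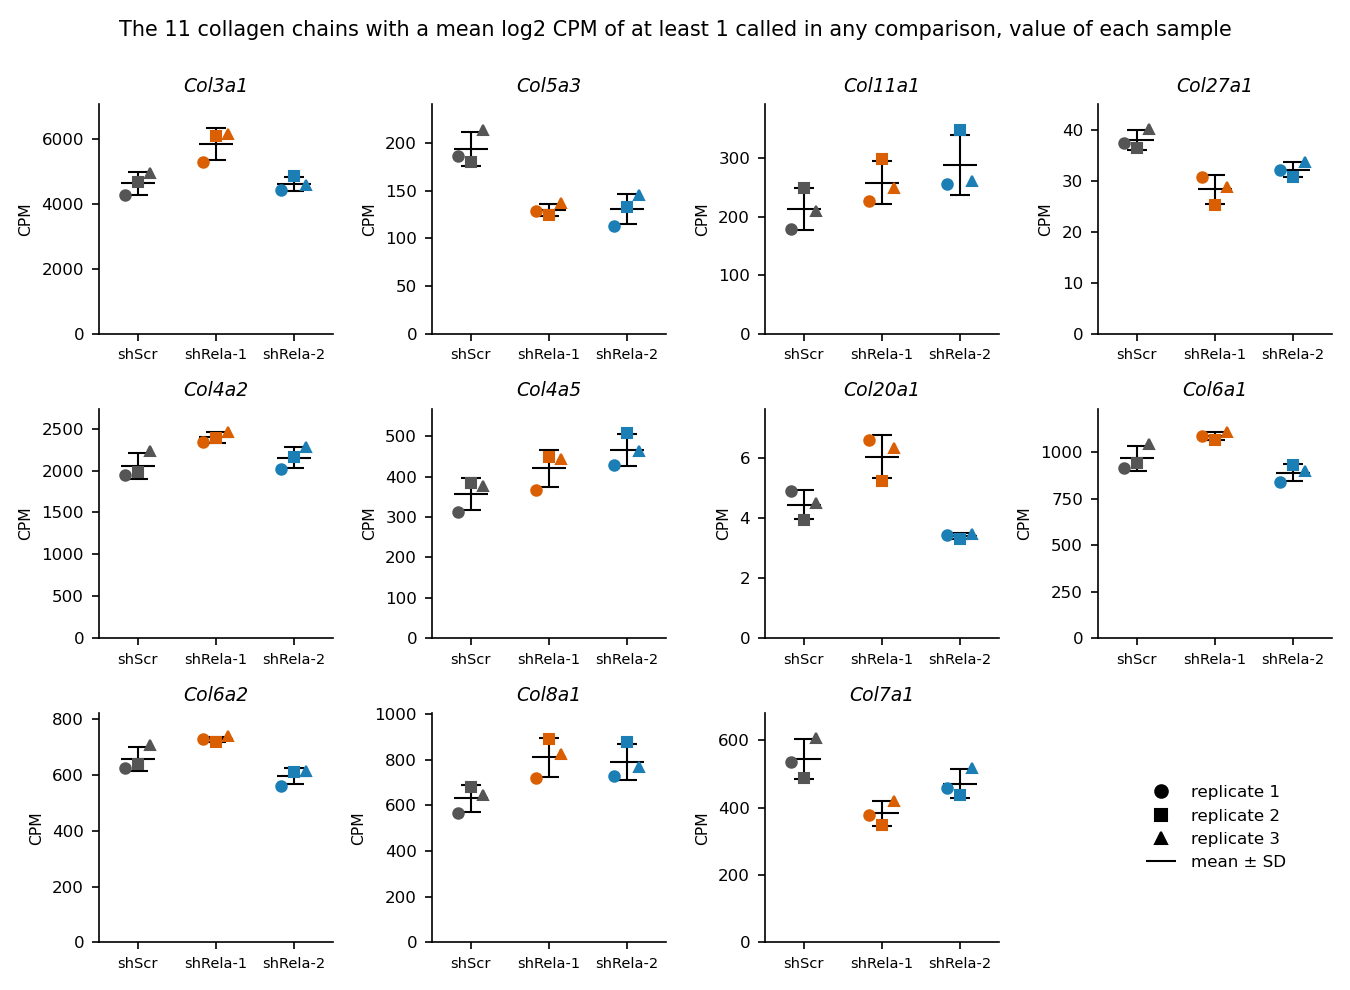
CPM of each sample for the 11 chains that averaged 1 or more in log2 CPM and were called in any comparison; circles, squares and triangles are replicates 1, 2 and 3, and bars are mean ± SD (n = 3). Col5a3 in all 6 knockdown samples (114 to 146) lies below shScr (180 to 214), and Col20a1 lies above shScr with shRela-1 (5.21 to 6.57) and below it with shRela-2 (3.28 to 3.45).

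Among FACITs, which coat the surface of fibrils, Col20a1 changed in opposite directions with the 2 hairpins. It was a low transcript, at 4.89, 3.93 and 4.48 CPM in shScr, 6.57, 5.21 and 6.32 under shRela-1, and 3.44, 3.28 and 3.45 under shRela-2. The 3 groups did not overlap. The log2 fold change was 0.45 ± 0.119 with shRela-1 (SE, edgeR adjusted p = 0.0195) and -0.38 ± 0.122 with shRela-2 (adjusted p = 0.0355), and the difference between hairpins was -0.83 ± 0.121 (adjusted p = 0.000295). The first call did not hold without shScr replicate 2 (0.0758), shScr replicate 3 (0.0561), shRela-1 replicate 1 (0.0698) or shRela-1 replicate 3 (0.0682). The second was lost without shScr replicate 1 (0.119), shScr replicate 3 (0.0917) or any of shRela-2 replicates 1 to 3 (0.0749, 0.101 and 0.0718). The difference between hairpins held under all 14 alternatives.

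Col19a1, another FACIT and one that is close to the floor of detection, stood at 0.877, 1.29 and 0.922 CPM in shScr, 1.67, 2.29 and 1.79 under shRela-1, and 1.25, 1.37 and 1.30 under shRela-2. It rose with shRela-1 by 0.89 ± 0.195 on the log2 scale (SE, edgeR adjusted p = 0.00744), and the value with shRela-2 was 0.34 ± 0.200 (adjusted p = 0.242). Its counts ran from 44 to 147 per sample. Col12a1, the abundant FACIT of dense connective tissue, had log2 fold changes of 0.14 (95% interval -0.18 to 0.46, edgeR adjusted p = 0.535, and 0.00492 with the replicate block) with shRela-1 and -0.03 (-0.35 to 0.28, adjusted p = 0.892) with shRela-2. Col16a1, at 59.7 CPM per kilobase in shScr, had -0.07 and -0.05 (adjusted p = 0.362 and 0.53). Col14a1, Col9a2, Col9a3 and Col22a1 were not called without the block. With it Col14a1 passed with both hairpins, at 0.30 and 0.22 (edgeR adjusted p = 0.000691 and 0.00882).

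Col6a1 and Col6a2, chains of the beaded filaments of type VI collagen, which links cells to the surrounding matrix, stood higher with shRela-1 than with shRela-2. Between hairpins the third usual chain, Col6a3, had -0.17 (edgeR adjusted p = 0.155, and 0.000285 with the replicate block), and Col6a4, Col6a5 and Col6a6 had 0.38, 0.11 and -0.05, none of which passed with or without the block. Col6a1 stood at 917, 945 and 1044 CPM in shScr, 1086, 1068 and 1110 under shRela-1, and 840, 931 and 901 under shRela-2. Col6a2 stood at 626, 640 and 708 CPM in shScr, 728, 719 and 738 under shRela-1, and 562, 609 and 614 under shRela-2. For both genes all shRela-1 samples lay above all shScr and all shRela-2 samples. The shScr and shRela-2 samples overlapped for Col6a1, and for Col6a2 all shRela-2 samples lay below shScr. The difference between hairpins was -0.29 ± 0.0552 for Col6a1 (SE, edgeR adjusted p = 0.0018) and -0.29 ± 0.0529 for Col6a2 (adjusted p = 0.0013), and both held under all 14 alternatives.

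Against shScr, Col6a1 rose by 0.17 ± 0.0552 with shRela-1 (SE, edgeR adjusted p = 0.0496). This call was lost on leaving out any shRela-1 sample (replicates 1 to 3: adjusted p = 0.0895, 0.0787 and 0.129), shScr replicate 1 (0.148) or 2 (0.132), shRela-2 replicate 2 (0.0535) or 3 (0.0683), or the samples numbered 2 (0.182). Col6a2 had 0.15 with shRela-1 (adjusted p = 0.068, and 0.000698 with the replicate block) and -0.14 with shRela-2 (adjusted p = 0.0626, and 0.000838 with the block). With shRela-2, Col6a1 had -0.12 (adjusted p = 0.127, and 0.0089 with the block). Col6a3, the third chain, had a difference between hairpins of -0.17 (95% interval -0.36 to 0.02, adjusted p = 0.155), which passed with the block (0.000285). Col6a1 and Col6a2 are neighbours on chromosome 10, on the minus strand at 76708792 to 76726168 and 76595762 to 76623630.

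Col6a4, one of the chains that can take the place of Col6a3, was near the floor, at 0.937, 1.01 and 1.03 CPM in shScr, 0.435, 0.733 and 0.505 under shRela-1, and 0.675, 0.933 and 0.570 under shRela-2. It fell by 0.83 ± 0.259 on the log2 scale with shRela-1 (SE, edgeR adjusted p = 0.04). The call was lost without shScr replicates 1, 2 or 3 (adjusted p = 0.066, 0.096 and 0.108), shRela-1 replicate 1 (0.125) or 3 (0.12), or the samples numbered 2 (0.0532). Col6a5 and Col6a6 had at most 27 and 16 counts in a sample.

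Col8a1 rose with both hairpins. It encodes the main chain of type VIII collagen, a short network-forming collagen of vessel walls and of the inner layer of the cornea. The gene lies on chromosome 16, 57624258 to 57754737, minus strand of mm10. It stood at 565, 682 and 646 CPM in shScr, 720, 890 and 824 under shRela-1, and 727, 877 and 767 under shRela-2. All knockdown samples lay above all control samples. Its log2 fold change was 0.36 ± 0.0952 with shRela-1 (SE, edgeR adjusted p = 0.0187) and 0.32 ± 0.0952 with shRela-2 (adjusted p = 0.0248), with a difference between hairpins of -0.04 (95% interval -0.25 to 0.17, adjusted p = 0.79). The call with shRela-1 did not hold without shScr replicate 1 (0.0599), shRela-1 replicate 2 (0.0672) or 3 (0.0581). That with shRela-2 was lost without shScr replicate 1 (0.0822) or 3 (0.0566) or shRela-2 replicate 2 (0.0981). That of the mean of both hairpins, 0.34 (adjusted p = 0.0138), was lost without shScr replicate 1 (0.0582). All of these calls held with the replicate block.

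Col7a1, the chain of the anchoring fibrils that fix the epidermis to the dermis, fell with shRela-1. In mm10 it spans 108953586 to 108984875 of chromosome 9, plus strand. It stood at 536, 489 and 606 CPM in shScr, 379, 349 and 421 under shRela-1, and 458, 438 and 519 under shRela-2. The shRela-1 samples were below all others, and shRela-2 overlapped shScr. On the log2 scale the change was -0.50 ± 0.0925 with shRela-1 (SE, edgeR adjusted p = 0.00278), a call that held under all 14 alternatives. With shRela-2 it was -0.20 ± 0.0923 (adjusted p = 0.124), which passed with the replicate block (1.09e-06). The difference between hairpins was 0.30 ± 0.0924 (adjusted p = 0.0247), and was lost without shRela-1 replicate 1 (0.0609) or 2 (0.0948) or shRela-2 replicate 3 (0.0989). The mean of both hairpins was -0.35 ± 0.0789 (adjusted p = 0.00886), lost without shScr replicate 3 (0.055). A microRNA gene, Mir711, lies within the gene on the same strand, so reads of the 2 could be split by counting.

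Of the transmembrane chains, Col25a1, best known from neurons, stood at 0.678, 0.875 and 1.26 CPM in shScr, 0.451, 0.343 and 0.440 under shRela-1, and 1.04, 0.579 and 0.837 under shRela-2. It fell by 1.19 ± 0.306 on the log2 scale with shRela-1 (SE, edgeR adjusted p = 0.0167), on counts of 22 to 79 per sample. That call did not hold without shScr replicate 3 (0.0756), shRela-1 replicate 2 (0.0603) or the samples numbered 2 (0.0894). Without the block Col13a1, Col17a1, Col23a1, Col26a1, Col28a1 and the network-forming chains Col10a1 and Col8a2 were not called. With it Col10a1, the chain of hypertrophic cartilage, passed with shRela-1 (-0.28, edgeR adjusted p = 1.33e-05), and Col8a2 (-0.345, 0.00406) and Col28a1 (0.42, 0.000281) passed with shRela-2.

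Chains that assemble into the same molecule were compared within each library, which needs no scaling between libraries. Counts per kilobase of Col4a1 for each of Col4a2 were 1.19, 1.20 and 1.20 in shScr, 1.03, 1.01 and 1.05 under shRela-1, and 1.30, 1.25 and 1.28 under shRela-2. The 3 groups did not overlap, and the ratio lay below shScr with one hairpin and above it with the other. Means were 1.20 ± 0.00754, 1.03 ± 0.0231 and 1.27 ± 0.0235 (SD, n = 3). Each of the 3 differences had an exact two-sided permutation p of 0.1, the smallest that 3 samples against 3 allow, and 0.3 adjusted over the 15 tests of 5 ratios. Col4a1 itself had a log2 fold change of 0.00 with shRela-1 (edgeR adjusted p = 0.972), 0.16 with shRela-2 (adjusted p = 0.0839, and 0.000265 with the replicate block), and a difference of 0.15 between hairpins (0.077, and 0.00031 with the block).

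The 2 genes lie head to head on chromosome 8, Col4a1 at 11198423 to 11312826 on the minus strand and Col4a2 at 11312805 to 11449287 on the plus strand, so that 22 bases of exon are shared and cannot be assigned by a library that does not mark strand. An earlier analysis of these same data pointed to short sequences in 3′ untranslated regions. AGGTGTA occurs in 8.55% of the 3′ untranslated regions of tested genes. Genes that hold it had a median log2 fold change of -0.15 with shRela-1, beside 0.01 for the rest. Of 43 chains 2 hold it, Col4a1 and Col8a2, whose levels with shRela-1 were 0.32 and 12.7% above shScr. GAAGCTA occurs in 9.67% of such regions and in 2 of 43 chains, Col4a3 and Col25a1. Its genes had a median of -0.16 with shRela-2 beside 0.01, and these chains stood 24.4 and 13.4% below shScr. The sequences came from these same data, so the medians are not a separate check. The part of the sequences in these results was not tested.

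**Figure D4:**
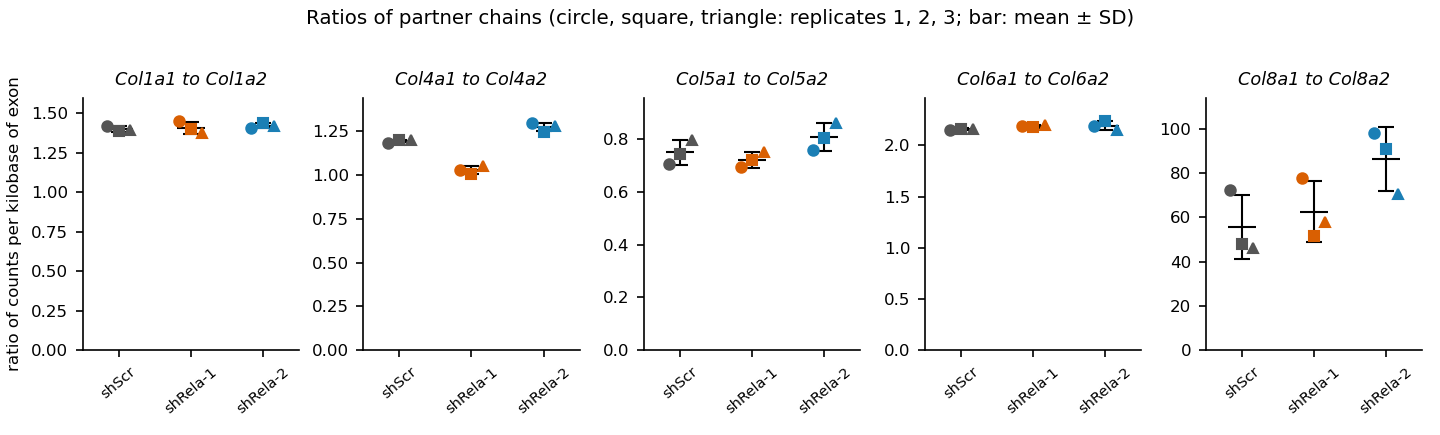
Ratio of counts per kilobase of exon for 5 pairs of partner chains, 1 point per sample (circle, square and triangle for replicates 1, 2 and 3), with mean ± SD (n = 3 per group). For Col4a1 to Col4a2 the groups lie apart at about 1.20, 1.03 and 1.27, while Col1a1 to Col1a2 stays between 1.38 and 1.45 in all samples.

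Among the other partner ratios, Col1a1 stood at 1.401 ± 0.0162 counts per kilobase for each of Col1a2 in shScr, 1.41 ± 0.0386 with shRela-1 and 1.42 ± 0.0157 with shRela-2 (SD, n = 3). Col6a1 to Col6a2 was 2.16 ± 0.00911, 2.19 ± 0.0137 and 2.19 ± 0.0450, with the shRela-1 samples above shScr by a margin of 1.4% in the mean (exact permutation p = 0.1, adjusted 0.3). Col5a1 to Col5a2 was 0.749 ± 0.0456, 0.720 ± 0.0288 and 0.807 ± 0.0525. Its values with shRela-2 lay above those with shRela-1 (exact permutation p = 0.1, adjusted 0.3), and both groups overlapped shScr. Within same-numbered pairs shRela-2 was above shScr in 3 of 3 (mean difference 0.0585 ± 0.00709, SD of the 3 differences), and shRela-1 was below shScr in 3 of 3 (mean difference -0.0282 ± 0.0170). Col8a1 to Col8a2 was 55.7 ± 14.7, 62.6 ± 13.7 and 86.5 ± 14.4, with overlapping groups. Its mean with shRela-2 was 55.3% above that in shScr and 38.1% above that with shRela-1, and shRela-2 was the higher in 3 of 3 same-numbered pairs in both comparisons.

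Many chains differed by replicate number. Col2a1 stood at 10.3, 43.8 and 14.8 CPM in shScr replicates 1 to 3, at 13.1, 50.2 and 13.98 under shRela-1, and at 13.8, 54.0 and 17.3 under shRela-2. The sample numbered 2 was thus high in every group, by 1.84 on the log2 scale over the mean of the other two (edgeR adjusted p = 2.36e-16). Its log2 fold change was 0.16 with shRela-1 (95% interval -1.37 to 1.69, adjusted p = 0.903) and 0.30 with shRela-2 (-1.23 to 1.83, adjusted p = 0.79, and 0.000376 with the replicate block). Of the 43 chains tested, 22 differed by replicate number (51.2%), beside 18.2% of all genes tested. Col11a1, Col18a1, Col28a1, Col4a5 and Col8a1 were likewise highest in number 2 of all 3 groups, Col24a1 was highest in number 1, and 8 chains, among them Col7a1, Col14a1 and Col15a1, were highest in number 3. The other 7, among them Col3a1, Col8a2 and Col16a1, were not highest in the same number in all groups. Col1a1 and Col1a2 did not pass (adjusted p = 0.508 and 0.591).

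The summed level of 8 chondrocyte markers other than collagens was 18.6 to 19.8 CPM in shScr, 18.5 to 19.8 under shRela-1 and 18.5 to 20.2 under shRela-2, and 5 of the 8 (Matn1, Matn3, Hapln1, Lect1 and Ucma) were below 1 CPM in every sample. Sox9, which other cells express too, made up most of that sum. The other 7, summed without it after its values were seen, came to 3.47, 6.06 and 3.89 CPM in shScr replicates 1 to 3, 4.43, 5.21 and 4.73 under shRela-1, and 3.3001, 5.73 and 4.88 under shRela-2, highest in number 2 of every group. Comp alone differed by number among the 8, and was highest in number 2 of every group. All 5 markers of macrophages and blood cells (Ptprc, Emr1, Csf1r, Cd68 and Itgam) were highest in number 2 of every group, with sums of 67.1, 107 and 78.9 CPM in shScr replicates 1 to 3. Krt5 of epithelial cells and Bglap2 of osteoblasts were likewise highest in number 2 of every group (edgeR adjusted p for number = 2.04e-06 and 0.000181). Krt8 and Cldn4, also of the epithelial list, were highest in number 1 of every group (edgeR, 0.019 and 0.00125). Of the osteoblast list, Runx2 was highest in number 3 of shScr and shRela-2 and in number 1 of shRela-1. Epcam, Cdh1, Krt14, Sp7, Ibsp, Alpl, Dmp1 and Phex were below 1 CPM in every sample. Des and Acta1 of muscle were highest in number 1 of every group. The fibroblast marker sum, most of it Fn1, was lowest in number 2 of every group. Among its members Fn1, Pdgfra, Thy1 and Fap were lowest in number 2 of every group, and Pdgfrb, Vim, Dcn and Lum were not. The part of these cells in the collagen values was not tested.

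**Figure D5:**
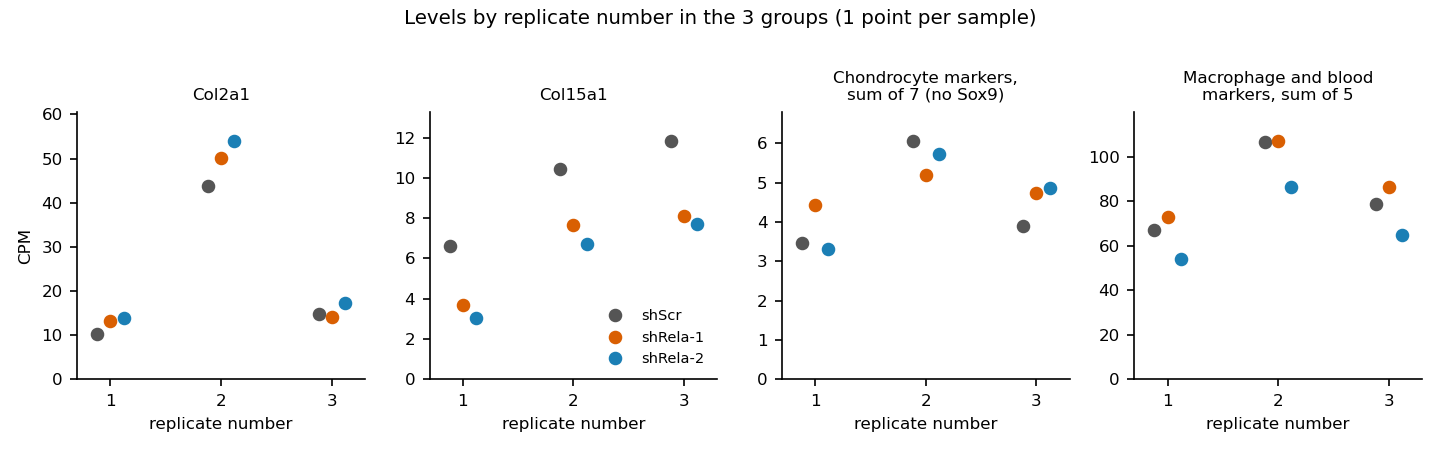
CPM of Col2a1, Col15a1 and the summed chondrocyte markers (without Sox9) and macrophage and blood markers against replicate number, 1 point per sample and 1 colour per group. Col2a1 is at 43.8 to 54.0 in the samples numbered 2 and at 10.3 to 17.3 in the others. Both marker sums shown are highest in number 2 of every group. With Sox9 the chondrocyte sum is highest in number 3 of shRela-2.

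The genes that modify, secrete, process, crosslink and bind collagen were described from a list of 47, of which 45 were tested. With shRela-1, 11 rose and 8 fell, with shRela-2, 18 rose and 5 fell, and between hairpins 16 were higher with shRela-2 and 5 lower (edgeR). These are 24.4 and 17.8% of the list beside 12.3 and 12.4% of all genes, 40% and 11.1% beside 15.4% each way, and 35.6 and 11.1% beside 20% and 19.9%. The medians of the list were 0.04, 0.10 and 0.07. Of the 19 genes of modification and folding in the endoplasmic reticulum, 9 rose with shRela-2 (47.4%) and 6 rose and 3 fell with shRela-1 (31.6 and 15.8%). With the replicate block, 19 of the 45 rose and 13 fell under shRela-1 (42.2 and 28.9%, beside 20.4 and 18.9% of all genes). Under shRela-2, 24 then rose (53.3% beside 22.2%) and 8 fell (17.8% beside 22.2%). Between hairpins, 22 were then higher with shRela-2 (48.9% beside 25.8%) and 11 lower (24.4% beside 26.1%). Without shScr replicate 2, 5 rose with shRela-1. With shRela-2, 3 fell without shScr replicate 3, shRela-2 replicate 1 or shRela-2 replicate 3; the ranges for all genes are those given above for 1 sample left out.

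Fkbp10, a chaperone of procollagen, stood at 472, 451 and 462 CPM in shScr, 480, 475 and 473 under shRela-1, and 619, 607 and 594 under shRela-2. It rose with shRela-2 by 0.39 ± 0.0347 on the log2 scale (SE, edgeR adjusted p = 2.11e-05), and the value with shRela-1 was 0.04 ± 0.0346 (adjusted p = 0.406). Sec23a, a coat protein of the vesicles that carry procollagen out of the endoplasmic reticulum, stood at 229, 223 and 218 CPM in shScr, 278, 271 and 283 under shRela-1, and 335, 322 and 305 under shRela-2. It rose by 0.31 ± 0.0429 with shRela-1 (adjusted p = 0.000426) and 0.52 ± 0.0430 with shRela-2 (adjusted p = 1.41e-05). The difference between hairpins, 0.21 (adjusted p = 0.00285), was lost without the samples numbered 2 (0.06). For both genes all shRela-2 samples lay above all others.

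Tll1, Tmem38b and Mrc2 fell with shRela-1 and not with shRela-2. Tll1, a protease that removes the carboxyl propeptide of procollagen, stood at 104, 118 and 106 CPM in shScr, 57.7, 65.3 and 64.0 under shRela-1, and 125, 123 and 125 under shRela-2. Its log2 fold change was -0.81 ± 0.0577 with shRela-1 (SE, edgeR adjusted p = 4.91e-06) and 0.19 ± 0.0571 with shRela-2 (adjusted p = 0.0304). The second call was lost without shScr replicate 1 (0.101) or 3 (0.111) or any of shRela-2 replicates 1 to 3 (0.0709, 0.0665 and 0.0749). Tmem38b, an ion channel of the endoplasmic reticulum whose loss causes brittle bones, fell by 0.94 ± 0.0803 with shRela-1 (adjusted p = 1.79e-05), and the value with shRela-2 was 0.05 ± 0.0784. Mrc2, a receptor that takes collagen up for degradation, fell by 0.42 ± 0.0480 with shRela-1 (adjusted p = 0.000141) and rose by 0.21 ± 0.0480 with shRela-2 (adjusted p = 0.00654, lost without the samples numbered 2, 0.0882). The differences between hairpins were 0.997 for Tll1, 0.99 for Tmem38b and 0.63 for Mrc2 (adjusted p = 4.68e-07, 4.73e-06 and 3.03e-06), and held under all 14 alternatives.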

How the data were processed

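RNA of 9 samples was column-extracted and made into libraries that do not mark strand, per the labels' protocols. The deposited values are raw read counts per gene; TopHat2 2.0.14, Bowtie2 2.2.6, featureCounts 1.4.6 and the genome mm10 are named in the submitters' processing notes, and for the annotation, the sources used here name none. In the low counts 1 occurs 2764 times and 2 occurs 7984 times.

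Groups came from the sample titles. Genes were filtered with filterByExpr, scaled with TMM (factors 0.975 to 1.02) and fitted in 1 model of all 9 samples with edgeR 4.0.16 (R 4.3.3, quasi-likelihood test, Benjamini-Hochberg adjustment over 15369 genes, threshold 0.05). Shares and ratios were compared with exact two-sided permutation tests (scipy 1.17.1). Levels per kilobase used exons of protein-coding transcripts of a GRCm38 annotation. Alternatives were relative log expression scaling, DESeq2 1.42.0, no filter, a replicate block, leaving out each sample, and, chosen after seeing the data, leaving out the 3 samples numbered 2. Same-numbered samples deviated together (r from 0.189 to 0.415 in 9 pairs, and from -0.306 to 0.0459 in 18 pairs with different numbers), so the numbers pair the samples. Replicates differed by more than counting error (chi-square per degree of freedom 11.9 to 112).

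Chains named with the value of every sample passed the threshold in any comparison and averaged 1 or more in log2 CPM; of the assembly list, the 2 with the smallest p in each contrast of 2 groups were named. Outside that rule, chains below that level and chains named for their replicate number, their pairing in a molecule or a change of call with the block were chosen after their values were seen. The members and lists were chosen with earlier results of these data known.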

Additional observations from a re-analysis of the deposited data

Results flagged for a closer look

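For 7 chains the effect of shRela-2 differed from that of shRela-1 by the test of the difference itself (edgeR's quasi-likelihood test, Benjamini-Hochberg adjusted p). The log2 difference, shRela-2 minus shRela-1, was -0.83 for Col20a1 (adjusted p = 0.000295), -0.34 for Col3a1 (0.00318), -0.29 for Col6a1 (0.0018) and -0.29 for Col6a2 (0.0013), and these held under all 14 alternatives. It was 0.30 for Col7a1 (0.0247), 0.98 for Col25a1 (0.0275) and -0.55 for Col19a1 (0.0412). The difference of Col25a1 was lost without shRela-1 replicate 2 (adjusted p = 0.09) or 3 (0.0598), shRela-2 replicate 1 (0.102) or 3 (0.0666), or the samples numbered 2 (0.0694). That of Col19a1 was lost without shScr replicate 3 (0.0509), shRela-1 replicate 2 (0.154) or 3 (0.0624), any of shRela-2 replicates 1 to 3 (0.1, 0.075 and 0.0942), or the samples numbered 2 (0.162). Between hairpins 20.0% of all genes tested were higher and 19.9% lower with shRela-2, while Rela itself differed by 0.03 (adjusted p = 0.726).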

How the results depend on the processing

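Of 50 called values of named genes, 28 held under all 14 alternatives, 22 were lost in some, and none changed sign. Among them, 10 of 24 held for chains that averaged 1 or more in log2 CPM, and 1 of 6 for chains below that level. For the assembly genes, which were named for their small p, 14 of 17 held, and for Rela 3 of 3. With the replicate block, collagen chains that rose and fell numbered 16 and 8 for shRela-1, 8 and 11 for shRela-2, 11 and 9 for their mean, and 10 and 14 between hairpins; assembly genes numbered 19 and 13, 24 and 8, 20 and 14, and 22 and 11. The block ended 0 of the 50 calls and added 20 among 87 values. Without the 3 samples numbered 2 (chosen after seeing the data), chains that rose and fell with shRela-1 numbered 3 and 3, and 1 was higher with shRela-2 than with shRela-1; of all genes, 998 rose and 1097 fell with shRela-1, against 1887 and 1912 with all samples, and 2095 were higher between hairpins, against 3071. Assembly genes then numbered 5 rises for shRela-1, 11 and 3 for shRela-2, 6 and 2 for their mean, and 10 higher between hairpins. Of all genes, 6.51% then rose with shRela-1, and 8.39% rose and 9.94% fell with shRela-2. In the mean 4.27% rose and 6.06% fell, and 13.7% were higher between hairpins. DESeq2 called 5 rises in the mean and 8 chains lower between hairpins, beside 13.8% and 20.3% of all genes. On TMM-scaled totals the collagen share differed by -0.347 percentage points between hairpins, against -0.185 on raw totals. The causes were not tested.

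Leaving out 1 sample at a time, chains that rose ranged from 2 to 6 for shRela-1, 0 to 3 for shRela-2, 0 to 4 for their mean and 0 to 3 between hairpins (edgeR, 3, 3 and 2 or 3 at an unadjusted p under 0.05 where 0), and chains that fell from 3 to 5, 1 to 5, 2 to 4 and 4 to 6. Assembly genes that rose ranged from 5 to 11, 13 to 18, 9 to 12 and 13 to 16, and those that fell from 6 to 8, 3 to 6, 3 to 7 and 5 to 7. Beside these, of all genes 8.30 to 11.8% fell in the mean and 17.1 to 19.8% were lower between hairpins, and the other ranges are given above. Values that were not called changed sign near 0. For shRela-2 against shScr, Col3a1 ran from -0.0630 to 0.0462, Col25a1 ran from -0.414 to 0.0626, Tmem38b ran from -0.0111 to 0.0898, Col1a1 ran from -0.0271 to 0.0412 and Col1a2 ran from -0.0438 to 0.0230. For the mean of both, Col6a2 ran from -0.0331 to 0.0570, Col6a1 ran from -0.0150 to 0.0797 and Col20a1 ran from -0.0517 to 0.106. Between hairpins, Col8a1 ran from -0.120 to 0.0323, Col5a3 ran from -0.0777 to 0.0978 and Rela ran from -0.0201 to 0.0525. For shRela-1 against shScr, Col4a1 ran from -0.0369 to 0.0711. Without the samples numbered 2, these were -0.0239 for Col6a2 and -0.00613 for Col6a1 in the mean, -0.0397 for Col5a3 between hairpins, -0.0330 for Col1a1 with shRela-2 and -0.000266 for Col4a1 with shRela-1. Depth limits chains under 1 CPM most, such as Col25a1 with 22 to 79 counts per sample.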
